A study of Mus musculus with 24 samples.

Results

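The genes described here encode the potassium channels and the voltage-gated sodium channels of the mouse, together with their auxiliary subunits. They were taken by name and biotype: protein-coding genes whose symbol has the form of a Kcn or an Scn gene. Of 21970 protein-coding genes, 106 fit that form, and the 49 whose mean reached 1 CPM (read count scaled to the size of the library) in at least 1 of 8 groups are reported. The other 57 stayed below that level in every group, and 2 of these, Scn11a and Kcnv1, had no read in any of the 24 libraries. Just inside the limit, the highest group mean of Kcnc2 was 1.03 CPM and that of Kcnip4 was 1.27 CPM. Just outside it, Kcnq1 reached 0.990 CPM and Kcnk3 reached 0.965 CPM.

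Poly(A) RNA was sequenced from primary cells of mouse hindlimb muscle, taken from pups less than 5 days old. The cells came from mdx mice (C57BL/10-Dmdmdx, which carry a mutation in the dystrophin gene Dmd) or from C57BL/10 mice, called C57 here. Myoblasts were differentiated into myotubes and given aldosterone, the steroid hormone that acts through the mineralocorticoid receptor, at 1 µM, or the vehicle DMSO at 0.001%, for 48 h in medium with charcoal-stripped horse serum. Fresh medium without hormone then replaced it for 15 h, and the myotubes were lysed after that interval. The medium collected from them was put on skeletal muscle fibroblasts for 24 h. This gave 8 groups of 3 libraries: aldosterone-treated and vehicle-treated myotubes of mdx and of C57 mice, and mdx and C57 fibroblasts in medium from aldosterone-treated or from vehicle-treated myotubes. Fibroblasts always received medium from myotubes of their own genotype, so the genotype of the cells and that of the medium cannot be told apart. The mdx and C57 cells also differ as cell preparations, which cannot be told apart from the dystrophin mutation.

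Voltage-gated sodium channels consist of a large pore-forming alpha subunit and small beta subunits, and they carry the rising phase of the action potential. Potassium channels bring the membrane back to rest: voltage-gated (Kv) channels open on depolarisation, inward rectifiers and tandem-pore channels hold the resting potential, and calcium- or sodium-activated channels open when those ions rise in the cell. In skeletal muscle the calcium-activated channel Kcnn3 is known from immature or denervated fibres, while Scn4a is the sodium channel of mature muscle.

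Total counts per library were 14133165 to 31144746 in myotubes and 16964960 to 42698139 in fibroblasts. The 8 myotube markers summed to 23780.0 to 40610.0 CPM in myotubes and to 15.4 to 156 CPM in fibroblasts. The 7 fibroblast markers summed to 1066 to 3900.0 CPM in mdx myotubes and 258 to 822 CPM in C57 myotubes. In fibroblasts they summed to 12210.0 to 23090.0 CPM, so both labelled cell types carried their markers. Fibroblast markers were also read in the myotube cultures, but unevenly. Per myotube library Col1a1 had 3684 to 33182 reads and Lum had 0 to 62. Whether that RNA came from fibroblasts was not tested. The 3 myoblast markers summed to 276.5 to 444 CPM in myotubes. Dmd, the gene mutated in mdx, was at 35.3 to 70.1 CPM in mdx myotubes and 352 to 485 CPM in C57 myotubes. It was at 7.28 to 12.2 CPM in mdx fibroblasts and 23.1 to 37.0 CPM in C57 fibroblasts. Levels here are CPM scaled by the trimmed mean of M-values (TMM) unless a sentence says FPKM (reads scaled by gene length and library size, which allows levels of different genes to be compared). Unless DESeq2 is named, p-values are from the quasi-likelihood F-test in edgeR, adjusted over all genes tested by the Benjamini-Hochberg method, and a gene was called where the adjusted p was below 0.05.

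The first comparison, of vehicle-treated myotubes with fibroblasts in vehicle-myotube medium, shows how the channel RNA levels of these cultures differed. The 49 genes divided into a myotube set and a fibroblast set: 27 were higher and 14 lower in mdx myotubes than in mdx fibroblasts, and 24 were higher and 16 lower in C57 myotubes than in C57 fibroblasts. The background was high, since 70.5% of all genes passed the test in the mdx comparison (35.5% higher, 35.1% lower) and 74.7% in the C57 comparison (36.7% higher, 38.0% lower). The median log2 difference of the 49 genes was 0.88 in mdx, against -0.02 over all genes, and 0.99 in C57, against -0.03. The level rule bears on these counts, because a gene that reached 1 CPM only through one cell type had to differ. The highest group was a myotube group for 28 genes and a fibroblast group for 21. In both lines 24 genes were higher and 14 lower in myotubes, and none was called in opposite directions. The genes called in neither line were Kcna6, Kcnh1, Kcnh7, Kcnk12, Kcnk5 and Kcnn1. In bulk RNA of this kind, fewer cells of a type and less RNA per cell cannot be told apart.

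**Figure D1:**
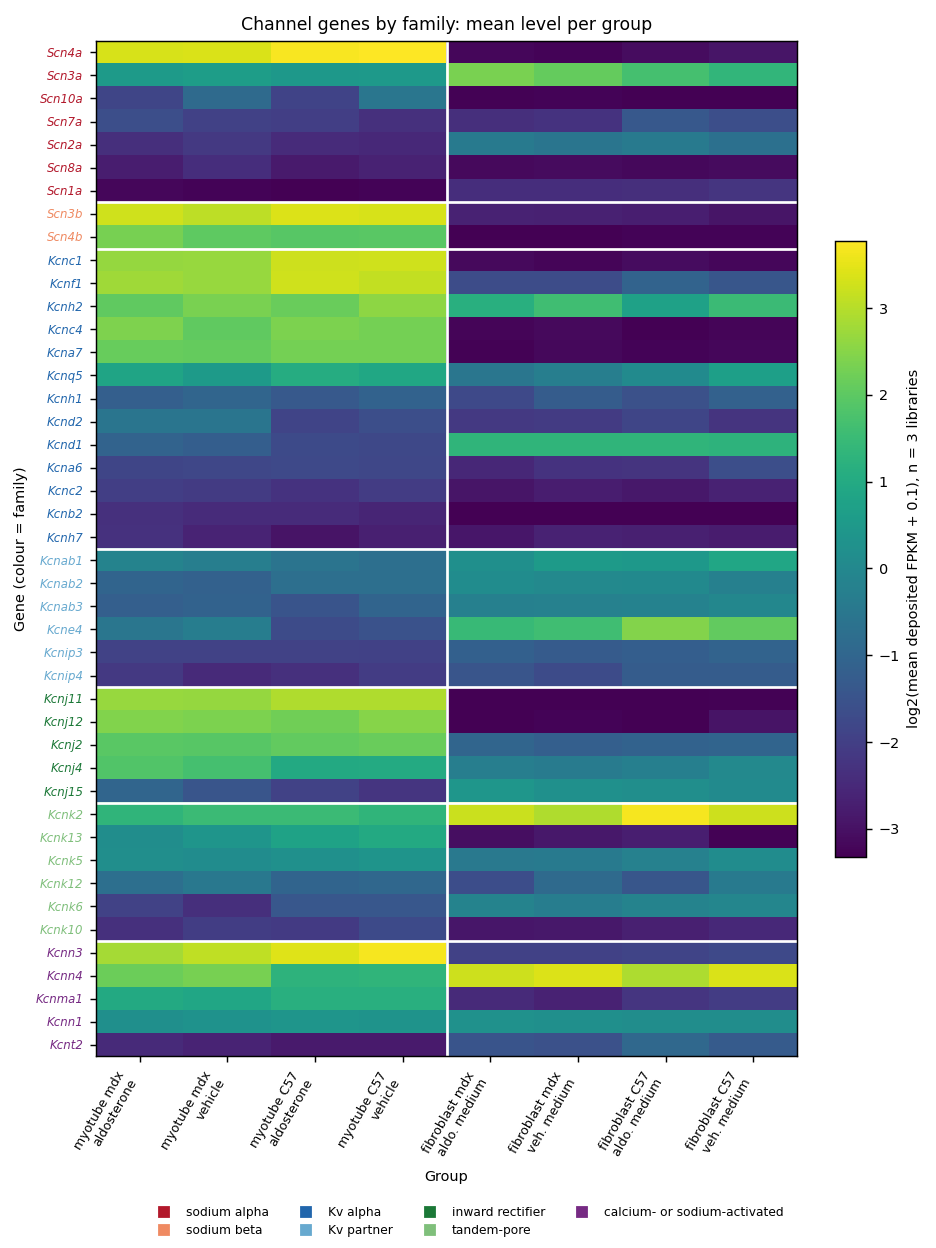
Heat map of 44 of the 49 channel genes (rows, ordered by family) in the 8 groups (columns, myotubes left and fibroblasts right). Colour is log2 of the mean deposited FPKM of 3 libraries plus 0.1. Among these rows Scn4a is the brightest in all 4 myotube groups, and Kcnn4 and Kcnk2 are the brightest in all 4 fibroblast groups.

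Among the sodium alpha subunits, Scn4a, the channel of mature muscle, had 55.9, 67.3 and 95.6 CPM in mdx myotubes, against 0, 0.0649 and 0.038 CPM in mdx fibroblasts. It had 121, 78.9 and 85.2 CPM in C57 myotubes, against 0.519, 0.132 and 0.0334 CPM in C57 fibroblasts, and the myotube and fibroblast libraries did not overlap. The log2 difference of Scn4a was 10.55 (SE 0.64, adjusted p = 6.97e-11) in mdx and 8.49 (SE 0.50, adjusted p = 3.77e-11) in C57.

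On the length-scaled FPKM level, Scn4a was at 10.3 ± 3.07 in mdx myotubes and 13.6 ± 3.25 in C57 myotubes (SD, n = 3). Scn4a made up 24.1% of the summed FPKM of the 8 sodium alpha genes in mdx vehicle myotubes and 26.3% in C57 vehicle myotubes. Scn10a, a sodium channel best known from sensory neurons, was also present, at 2.03, 2.77 and 6.03 CPM in mdx vehicle myotubes and 4.53, 5.5 and 4.0 CPM in C57 vehicle myotubes. The C57 fibroblasts in vehicle medium had no Scn10a read, so the level was at least 159.9-fold higher in C57 myotubes than the limit of 3 counts over that fibroblast group. The brain sodium channel Scn8a was higher in myotubes too, by 2.40 (SE 0.43, adjusted p = 4.23e-05) in mdx and 2.08 (SE 0.43, adjusted p = 0.000181) in C57 on the log2 scale.

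Fibroblasts carried a different set of sodium alpha subunits, the brain channels Scn3a and Scn2a, at low levels. Scn3a had 15.4, 17.2 and 23.1 CPM in mdx myotubes, against 58, 55.3 and 48.3 CPM in mdx fibroblasts, and 17.8, 16.6 and 15.7 CPM in C57 myotubes, against 25.3, 29.4 and 41.5 CPM in C57 fibroblasts. Its log2 difference was -1.55 (SE 0.25, adjusted p = 1.59e-05) in mdx and -0.94 (SE 0.24, adjusted p = 0.00184) in C57. Scn3a made up 83.4% of the summed sodium alpha FPKM in mdx fibroblasts and 71.3% in C57 fibroblasts. Scn2a, with 11.6% and 15.3% of that sum in the mdx and C57 fibroblasts, was lower in myotubes, at -2.30 (SE 0.25, adjusted p = 5.31e-08) in mdx and -2.83 (SE 0.26, adjusted p = 2.7e-09) in C57. Scn1a, a further brain channel, was lower in myotubes in both lines, at -4.19 in mdx and -4.65 in C57 (adjusted p = 9.29e-06 and 1.22e-06). Scn7a, a sodium-sensing member of the family, differed by 0.62 (SE 0.50, adjusted p = 0.279) in mdx and -1.24 (SE 0.48, adjusted p = 0.0263) in C57, and the difference between these did not pass, at 1.85 (SE 0.70, adjusted p = 0.273).

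Of the sodium channel beta subunits, which modulate gating and surface level of the channel, Scn3b was a myotube gene, with 40.0, 47.9 and 48.4 CPM in mdx myotubes, against 0.212, 0.411 and 0.342 CPM in mdx fibroblasts. In the C57 line Scn3b had 55, 52.9 and 54.9 CPM in myotubes, against 0.236, 0.132 and 0.167 CPM in fibroblasts. The log2 difference of Scn3b was 7.01 (SE 0.19, adjusted p = 3.93e-17) in mdx and 8.16 (SE 0.20, adjusted p = 8.19e-18) in C57, the smallest adjusted p of all 49 channel genes in both comparisons. Scn4b had 11.9, 19.4 and 27.4 CPM in mdx myotubes, against no read in mdx fibroblasts, which puts it at least 596.1-fold higher than the limit of 3 counts over that group.

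Kv alpha subunits, the largest family, were mostly higher in myotubes, with 12 of 16 genes higher and 1 lower in mdx and 10 higher and 1 lower in C57. Kcnf1, an electrically silent Kv subunit, had 25.2, 31.6 and 33.9 CPM in mdx myotubes, against 1.17, 0.908 and 1.03 CPM in mdx fibroblasts, a log2 difference of 4.89 (SE 0.24, adjusted p = 3.18e-13). Its C57 values were 35.9, 42.9 and 44.5 CPM in myotubes, against 1.63, 1.75 and 0.702 CPM in fibroblasts, a log2 difference of 4.89 (SE 0.23, adjusted p = 1e-13). Every myotube library was above every fibroblast library.

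Kcnc1, a fast Kv channel, differed by 9.74 (SE 0.58, adjusted p = 4.64e-11) in mdx and 9.54 (SE 0.52, adjusted p = 1.18e-11) in C57. Kcnc4, of the same family, had 15.5 ± 10.4 CPM in mdx myotubes and 18.4 ± 0.654 CPM in C57 myotubes (SD, n = 3), with 3 reads over each of the matching fibroblast groups. Kcna7, a muscle Kv subunit, had 9.13 ± 1.14 CPM in mdx myotubes and 10.4 ± 3.05 CPM in C57 myotubes, with 3 reads in the mdx and 2 in the C57 fibroblasts.

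The Kv alpha gene that was higher in fibroblasts was Kcnd1, a subunit of rapidly inactivating channels. It had 1.29, 2.39 and 1.68 CPM in mdx myotubes, against 13.7, 13.1 and 12.4 CPM in mdx fibroblasts, and 0.653, 1.22 and 1.09 CPM in C57 myotubes, against 12.1, 12.7 and 12.7 CPM in C57 fibroblasts. The log2 difference was -2.92 (SE 0.28, adjusted p = 7.67e-09) in mdx and -3.64 (SE 0.29, adjusted p = 3.73e-10) in C57. Kcnh2, the hERG channel of cardiac repolarisation, was shared, with the highest FPKM of its family in fibroblasts, at 2.91 ± 0.145 in mdx and 2.75 ± 0.226 in C57 fibroblasts (SD, n = 3), and a myotube difference of 0.76 (SE 0.28, adjusted p = 0.0207) in mdx and 1.03 (SE 0.27, adjusted p = 0.00234) in C57 on the log2 scale. Kcna5, a Kv subunit of heart and vessels, stayed below the level limit, with a highest group mean of 0.0356 CPM.

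The auxiliary subunits of Kv channels ran the other way: of 6 genes, none was higher in myotubes in either line, 5 were lower in mdx and 6 lower in C57. Kcne4, a small membrane protein that inhibits several Kv channels, had the highest FPKM of this family in fibroblasts, at 2.95 ± 0.767 in mdx and 4.1 ± 1.6 in C57 fibroblasts (SD, n = 3). In CPM it had 1.25, 2.84 and 1.53 in mdx myotubes, against 10.3, 7.12 and 6.58 in mdx fibroblasts, and 0.467, 0.475 and 1.02 in C57 myotubes, against 7.98, 16.1 and 9.49 in C57 fibroblasts. Its log2 difference was -2.14 (SE 0.44, adjusted p = 0.000263) in mdx and -4.19 (SE 0.50, adjusted p = 2.82e-07) in C57. Kcnab1, a cytoplasmic beta subunit that speeds inactivation, was lower in myotubes, at -0.95 (SE 0.37, adjusted p = 0.0291) in mdx and -1.88 (SE 0.38, adjusted p = 0.000185) in C57 on the log2 scale. For Kcnab2 the log2 difference was -1.30 (SE 0.24, adjusted p = 7.4e-05) in mdx and -0.63 (SE 0.23, adjusted p = 0.0203) in C57. The span of Kcnab2 overlaps that of Nphp4 on the opposite strand. The libraries kept no strand, so reads from any exon sequence the pair shares cannot be told apart. Whether their exons overlap was not checked. The same holds for Kcnh1 with Hhat, Kcnh7 with Gca, and Kcnip4, whose opposite-strand genes had more reads than they did.

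**Figure D2:**
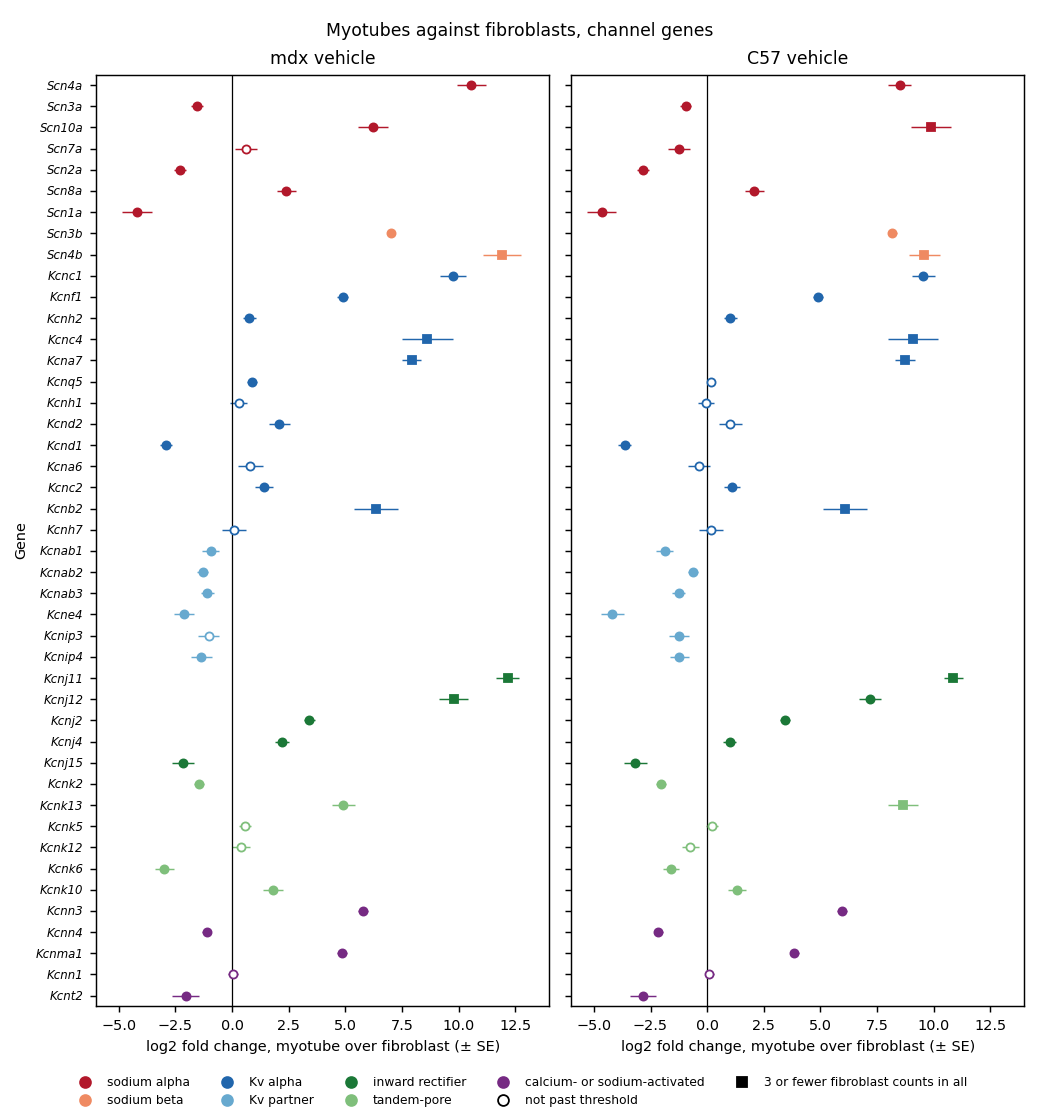
Log2 difference (vehicle-treated myotubes over fibroblasts in vehicle-myotube medium) for 44 of the 49 channel genes, mdx left and C57 right, coloured by family. Filled symbols passed the adjusted p threshold of 0.05, and squares mark genes with 3 or fewer reads over the fibroblast group. Kv alpha genes lie mostly right of 0 and Kv auxiliary genes left of it.

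Inward rectifiers were mostly myotube genes, with 4 of 5 higher and 1 lower in both lines. Kcnj11, the pore subunit of the ATP-sensitive potassium channel of muscle, had the highest FPKM of the family in myotubes, at 6.22 ± 1.62 in mdx and 7.59 ± 0.819 in C57 (SD, n = 3). Its reads numbered 1199 over the mdx vehicle myotubes and none over the mdx fibroblasts, which puts it at least 699.3-fold higher than the limit of 3 counts over that group. In C57, Kcnj11 had 1775 reads over the vehicle myotubes and 1 over the fibroblasts. Kcnj2, the classical strong inward rectifier of muscle, had 13.9, 22.1 and 25.4 CPM in mdx myotubes, against 2.12, 2.08 and 1.52 CPM in mdx fibroblasts, and 27.2, 22.2 and 21.4 CPM in C57 myotubes, against 2.27, 2.27 and 1.97 CPM in C57 fibroblasts. The cell types did not overlap, and the log2 difference was 3.41 (SE 0.23, adjusted p = 3.59e-11) in mdx and 3.44 (SE 0.23, adjusted p = 1.48e-11) in C57. Kcnj12, a close relative of Kcnj2, had 14.2 ± 4.98 CPM in mdx myotubes and 14.9 ± 0.641 CPM in C57 myotubes, with 0.0127 ± 0.022 and 0.0852 ± 0.0957 CPM in the mdx and C57 fibroblasts (SD, n = 3). The exception was Kcnj15, which was lower in myotubes, at -2.15 (SE 0.48, adjusted p = 0.000518) in mdx and -3.17 (SE 0.51, adjusted p = 1.53e-05) in C57 on the log2 scale.

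Tandem-pore channels were led in fibroblasts by Kcnk2, a mechanically and thermally gated leak channel, at 7.56 ± 0.653 FPKM in mdx and 9.4 ± 1.92 FPKM in C57 fibroblasts (SD, n = 3). In CPM Kcnk2 had 16.7, 14.3 and 10.5 in mdx myotubes, against 34.1, 41.3 and 39 in mdx fibroblasts, and 14.1, 10.7 and 10.2 in C57 myotubes, against 39.8, 45.1 and 58.4 in C57 fibroblasts. Its log2 difference was -1.45 (SE 0.21, adjusted p = 3.41e-06) in mdx and -2.03 (SE 0.21, adjusted p = 3.16e-08) in C57. Kcnk6, another leak channel, was lower in myotubes, at -3.00 (SE 0.42, adjusted p = 1.91e-06) in mdx and -1.59 (SE 0.34, adjusted p = 0.000257) in C57. The family was divided, since Kcnk13 and Kcnk10 were higher in myotubes in both lines. Kcnk13 had 3.75 ± 0.422 CPM in mdx and 5.78 ± 1.13 CPM in C57 vehicle myotubes (SD, n = 3), with 1 read over the C57 fibroblasts.

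The calcium-activated channels also divided by cell type. Kcnn3, the small-conductance channel of immature and denervated muscle, had 87.8, 76.2 and 105 CPM in mdx myotubes, against 2.17, 1.54 and 1.33 CPM in mdx fibroblasts, and 143, 122 and 132 CPM in C57 myotubes, against 2.48, 1.65 and 2.14 CPM in C57 fibroblasts. Its log2 difference was 5.78 (SE 0.23, adjusted p = 3.85e-14) in mdx and 5.97 (SE 0.22, adjusted p = 1.13e-14) in C57. Kcnma1, the pore of the large-conductance channel, was higher in myotubes by 4.85 (SE 0.21, adjusted p = 3.09e-14) in mdx and 3.85 (SE 0.19, adjusted p = 1.21e-13) in C57. The sodium-activated channel Kcnt2 was lower in myotubes, at -2.05 (SE 0.60, adjusted p = 0.00439) in mdx and -2.83 (SE 0.59, adjusted p = 0.000197) in C57. Kcnn4, the intermediate-conductance channel known from fibroblasts and lymphocytes, went the other way, at 10.6 ± 1.24 FPKM in mdx and 10.2 ± 2.06 FPKM in C57 fibroblasts (SD, n = 3), the highest of any potassium channel gene there. Kcnn4 was lower in myotubes, at a log2 difference of -1.12 (SE 0.19, adjusted p = 2.53e-05) in mdx and -2.16 (SE 0.20, adjusted p = 4.8e-09) in C57.

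Whether the gap between the cell types differed between the lines was tested directly, as the mdx difference minus the C57 difference. No channel gene passed edgeR's test, where 0.230% of all genes did. An unadjusted p under 0.05 was found for 11 of 49 channel genes, beside 2114 of all 17864 genes tested. DESeq2 called Kcnn4 alone (adjusted p = 0.0179, beside 1.80% of all genes). The channel genes with the smallest p were Kcnn4, at 1.04 (SE 0.27, adjusted p = 0.0993), Kcnma1, at 1.01 (SE 0.27, adjusted p = 0.114), and Kcnk13, at -3.71 (SE 1.15, adjusted p = 0.177), a value that rests on 1 read in the C57 fibroblasts. Kcnk13 passed when vehicle-treated mdx myotube replicate 3 was left out. Among the fibroblast libraries, mdx aldosterone-medium replicate 2 and C57 vehicle-medium replicate 1 had the highest myotube marker sums of the 12, at 156 and 120.0 CPM. The part of myotube RNA in the fibroblast values was not tested.

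Partner genes of these channels, a list of 36 anchoring, auxiliary and ion-pump genes of which 32 could be tested, showed 23 higher and 6 lower in mdx myotubes and 23 higher and 7 lower in C57 myotubes. Abcc9, the sulfonylurea receptor that joins Kcnj11 in the muscle ATP-sensitive channel, was higher in myotubes by 6.44 (SE 0.26, adjusted p = 7.93e-14) in mdx and 6.68 (SE 0.26, adjusted p = 2.29e-14) in C57. Cav3, the muscle caveolin, was higher by 6.47 (SE 0.19, adjusted p = 1.42e-16) in mdx and 7.57 (SE 0.20, adjusted p = 2.49e-17) in C57. Fgf13, a cytoplasmic partner of sodium channels, was higher by 5.47 (SE 0.15, adjusted p = 5.22e-17) in mdx and 5.23 (SE 0.15, adjusted p = 4.64e-17) in C57.

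The second comparison asked what aldosterone did to the channel RNAs of the myotubes that received it. Scn10a was lower in aldosterone-treated myotubes in all 6 cultures, and so were the repolarising channels Kcnh2 and Kcnn3, by smaller amounts. Being lower in 6 of 6 cultures was not particular to these 3 genes. Kcnk13, Kcnk10, Scn8a and other channel genes were too, while Kcnq5 was higher in 6 of 6. The share of all genes that moved the same way in every culture was not computed. Scn4a passed no test. Because replicate numbers paired the cultures (same-numbered aldosterone and vehicle libraries deviated together in 6 of 6 pairs), the fit with the replicate as a block is given beside the fit without it. Without the block no channel gene passed edgeR's test in mdx (0 of 15763 genes), in C57 (0.0127% of genes) or in the mean of both lines (0.216%). At an unadjusted p under 0.05 there were 2 of 46 channel genes in mdx, 2 in C57 and 4 in the mean. Over all 15763 genes there were 542, 783 and 1167. DESeq2 called none in mdx (0.0804% of all genes), and Scn10a in C57 (0.353%) and in the mean (0.970%).

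With the block, 2 of 46 channel genes were lower in mdx (2.33% of all genes called, 1.32% lower), 3 were lower in C57 (4.98% called, 2.46% lower), and 2 were higher and 5 lower in the mean of both lines (8.96% called, 4.40% higher and 4.56% lower). Taken as shares of the 46 genes, the total and the lower counts lie above the shares over all genes in each of the 3 fits. This excess rests on few genes and was not tested. The 2 genes higher in the mean lie at about the share called higher over all genes. The median log2 change of the channel genes in the mean was -0.04, against 0.01 over all genes.

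Scn10a had 1.04, 1.03 and 2.26 CPM in mdx aldosterone-treated myotubes, against 2.03, 2.77 and 6.03 CPM in mdx vehicle myotubes. In C57 it had 1.55, 1.52 and 0.95 CPM in aldosterone-treated myotubes, against 4.53, 5.5 and 4.0 CPM in vehicle myotubes. The 2 groups overlapped in mdx, where replicate 3 was high with either treatment, and did not overlap in C57. Within a culture the aldosterone level was 0.372 to 0.514 of the vehicle level in mdx and 0.238 to 0.342 in C57. With the block the log2 change was -1.29 (SE 0.24, adjusted p = 0.00252) in mdx, -1.80 (SE 0.21, adjusted p = 6.5e-06) in C57 and -1.55 (SE 0.16, adjusted p = 3.92e-07) in the mean. Without it the mean change was -1.54 (SE 0.30, adjusted p = 0.0686). Leaving out each culture in turn with the block kept the mean call in 6 of 6 fits, the C57 call in 3 of 3 and the mdx call in 2 of 3 (adjusted p = 0.0971 without mdx culture 3). The counts behind these levels were small, from 16 to 162 reads per myotube library.

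Scn10a lies on the reverse strand of chromosome 9 (mm39, 119437522 to 119548388), 34436 bases from Scn11a, in a cluster of sodium channel genes. The blocked mean change of Scn4a was -0.04 (SE 0.05, adjusted p = 0.649). Scn10a made up 0.418% of the summed sodium alpha FPKM in mdx aldosterone-treated myotubes and 1.01% in mdx vehicle myotubes, with 0.341% in C57 aldosterone-treated and 1.17% in C57 vehicle myotubes. Since Scn10a is best known from neurons, the 5 neuron markers are given beside it: they summed to 24.4 to 44 CPM in mdx aldosterone-treated and 23.9 to 40.6 CPM in mdx vehicle myotubes, and 28 to 30.1 CPM in C57 aldosterone-treated and 20.2 to 24.1 CPM in C57 vehicle myotubes. Only 2 of the 5 had enough reads to be tested. Neither passed as lower with aldosterone, and 1, Stmn2, was higher with the block, at 0.46 (SE 0.09, adjusted p = 0.00384) in the mean. The 7 Schwann cell markers summed to 20.9, 31.8 and 49.6 CPM with aldosterone and 18.8, 26.4 and 42.55 CPM with vehicle in mdx myotubes. The C57 sums were 56.6, 22.7 and 22.75 CPM with aldosterone and 36.2, 24.8 and 23.25 CPM with vehicle. Culture 3 was highest in mdx, as for Scn10a, and culture 1 in C57, as for Scn10a with aldosterone only. None of the 6 tested passed in the mean, with or without the block. The part of either cell type in the Scn10a change was not tested.

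Kcnh2 had 16.6, 19.9 and 22.8 CPM in mdx aldosterone-treated myotubes, against 22.5, 21.8 and 29 CPM in mdx vehicle myotubes, and 23.6, 19.8 and 19.5 CPM in C57 aldosterone-treated myotubes, against 31.3, 26.1 and 26.7 CPM in C57 vehicle myotubes. The groups overlapped in mdx and not in C57, and every culture was lower with aldosterone, at 0.738 to 0.912 of the vehicle level in mdx and 0.731 to 0.757 in C57. The blocked log2 change was -0.31 (SE 0.09, adjusted p = 0.0558) in mdx, -0.41 (SE 0.08, adjusted p = 0.00277) in C57 and -0.36 (SE 0.06, adjusted p = 0.000205) in the mean. Kcnn3 had 75.3, 54.5 and 90.3 CPM in mdx aldosterone-treated myotubes, against 87.8, 76.2 and 105 CPM in mdx vehicle myotubes, and 129.5, 95.2 and 110.2 CPM in C57 aldosterone-treated myotubes, against 143, 122 and 132 CPM in C57 vehicle myotubes. The groups overlapped in both lines, and Kcnn3 too was lower in 6 of 6 cultures, at 0.715 to 0.858 of vehicle in mdx and 0.784 to 0.906 in C57. Its blocked log2 change was -0.31 (SE 0.06, adjusted p = 0.00837) in mdx, -0.25 (SE 0.06, adjusted p = 0.018) in C57 and -0.28 (SE 0.04, adjusted p = 0.000176) in the mean. The mean calls of Kcnh2 and Kcnn3 were kept in 6 of 6 fits that left out a culture, while the C57 call of Kcnn3 was kept only without culture 1 (adjusted p = 0.0555 without culture 2 and 0.129 without culture 3) and its mdx call was lost without culture 2 (adjusted p = 0.286).

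**Figure D3:**
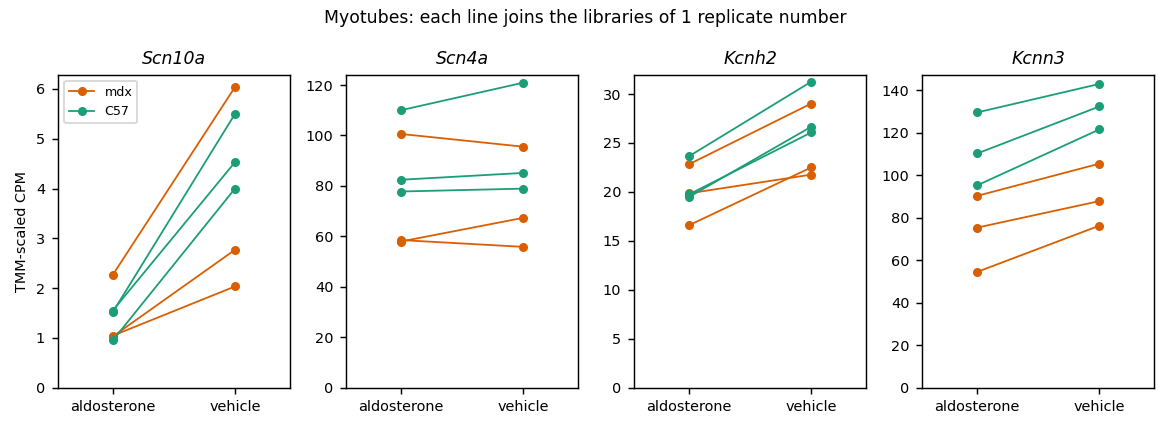
TMM-scaled CPM of Scn10a, Scn4a, Kcnh2 and Kcnn3 in each myotube library, aldosterone left of vehicle, for mdx and C57, with lines joining libraries of the same replicate number. The lines of Scn10a, Kcnh2 and Kcnn3 all slope the same way (lower with aldosterone in 6 of 6 cultures), and those of Scn4a do not.

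Among the genes called higher in the mean, Kcnc4 changed by 0.22 (SE 0.07, adjusted p = 0.0368) and Kcnq5, a Kv subunit, by 0.24 (SE 0.08, adjusted p = 0.0482), and each was called in 1 of 6 fits that left out a culture, the one without C57 culture 1 for Kcnc4 and the one without mdx culture 1 for Kcnq5. Culture mdx 1 held Kcnc4 at 4.64 CPM with aldosterone and 3.76 CPM with vehicle, far under the other myotube libraries (17.6 to 29.6 CPM), and without the block the change was 0.00 when mdx vehicle replicate 1 was left out. Kcnj2, Kcnj11 and Kcnma1 did not pass the blocked test in the mean, with -0.02 (SE 0.06, adjusted p = 0.874), 0.01 (SE 0.06, adjusted p = 0.968) and 0.08 (SE 0.05, adjusted p = 0.387).

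The difference of the aldosterone change between the lines was tested as mdx minus C57, with the vehicle groups of each line as its own baseline. An unadjusted p under 0.05 was found for 0 channel genes without the block (152 of 15763 genes) and 4 with it (835 of 15763 genes). No channel gene passed edgeR's test (0 of all genes without the block, 0.0444% with it), and none passed by DESeq2. The mdx and C57 changes of Scn10a are therefore not shown to differ. Markers of other cells moved with aldosterone under the block. In the mean of both lines 4 of 5 macrophage markers were higher, and 2 of 8 myotube and 2 of 7 fibroblast markers were lower. The macrophage calls differed by line, with 4 higher in mdx (median log2 change 2.27), 1 lower in C57 (median -0.31) and 3 called in the difference between the lines. The macrophage list summed to 0.196 to 37.5 CPM in mdx aldosterone-treated and 0.102 to 8.68 CPM in mdx vehicle myotubes, and to 2.67 to 83.6 CPM in C57 aldosterone-treated and 3.31 to 106 CPM in C57 vehicle myotubes. Their part in the channel changes was not tested.

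Of the 32 partner genes tested, 4 were higher and 5 lower with aldosterone in the blocked mean, and none passed without the block. Abcc9, the partner of Kcnj11, changed by -0.47 (SE 0.04, adjusted p = 2.54e-08). Atp1b1, a beta subunit of the sodium-potassium pump, was higher, by 0.24 (SE 0.04, adjusted p = 0.000432) on the log2 scale. Fgf11, a cytoplasmic sodium channel partner, changed by -0.32 (SE 0.07, adjusted p = 0.00369), and Cav3 by -0.17 (SE 0.04, adjusted p = 0.00648). The pump is a textbook target of aldosterone in the kidney tubule, and so is the kinase gene Sgk1. In these myotubes, 15 h after the hormone was removed, Sgk1 changed by 0.17 (SE 0.12, adjusted p = 0.462).

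Promoters of the genes that moved are shown because aldosterone acts through a DNA-binding receptor and these are the stretches before the annotated starts. The RefSeq promoter table (build GRCm38.p6) held 37 of the 49 genes, with 55 start windows; the other 12 had none there. The 250 bases before the start are printed on the gene's strand for Scn10a (chr9:119719033-119719282, reverse), Kcnh2 (chr5:24329592-24329841, reverse), Kcnn3 (chr3:89519914-89520163, forward) and Kcnn4 (chr7:24370013-24370262, forward), the last for the difference between mdx and C57 myotubes given after them. Capitals mark the E-box CANNTG, the motif of basic helix-loop-helix factors such as MyoD, or the GC box GGGCGG, on either strand.
Scn10a: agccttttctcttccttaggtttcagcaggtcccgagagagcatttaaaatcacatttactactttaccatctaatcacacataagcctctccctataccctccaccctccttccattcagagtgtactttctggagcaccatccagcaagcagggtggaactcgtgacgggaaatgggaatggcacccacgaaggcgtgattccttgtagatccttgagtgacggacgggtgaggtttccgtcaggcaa
Kcnh2: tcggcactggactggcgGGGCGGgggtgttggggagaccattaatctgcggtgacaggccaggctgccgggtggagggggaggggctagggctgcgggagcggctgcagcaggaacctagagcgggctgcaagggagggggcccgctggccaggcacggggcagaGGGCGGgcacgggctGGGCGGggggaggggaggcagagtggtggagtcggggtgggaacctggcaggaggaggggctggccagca
Kcnn3: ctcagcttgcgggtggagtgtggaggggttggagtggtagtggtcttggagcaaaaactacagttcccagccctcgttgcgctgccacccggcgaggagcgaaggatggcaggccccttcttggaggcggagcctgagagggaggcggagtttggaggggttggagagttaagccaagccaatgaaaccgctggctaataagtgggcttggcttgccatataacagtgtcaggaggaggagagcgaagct
Kcnn4: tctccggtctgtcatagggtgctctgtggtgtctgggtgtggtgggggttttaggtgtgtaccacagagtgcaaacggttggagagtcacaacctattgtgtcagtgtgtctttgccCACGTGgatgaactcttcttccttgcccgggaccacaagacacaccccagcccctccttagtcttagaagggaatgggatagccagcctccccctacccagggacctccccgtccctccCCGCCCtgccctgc

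The Kcnh2 window held 3 GC boxes and was 73.6% G and C, against a median of 52.4% over all 32851 mouse windows, while the Scn10a and Kcnn3 windows held neither motif. The Kcnn4 window held 1 E-box and 1 GC box. None of the 4 held TGTTCT, the half-site of the corticosteroid receptors, which was found on either strand in 18.2% of the channel windows and in 16.1% of all windows. The full corticosteroid receptor site, an inverted repeat that contains the half-site, was in 0 of 55 channel windows and in 0.00913% of all windows. E-boxes were in 61.8% of channel windows and 66.2% of all windows, the CAGCTG form preferred by MyoD (a subset of CANNTG) in 21.8% and 13.0%, the GC box in 36.4% and 32.7%, and the TATA box TATAAA in 1.82% and 12.4%. A match is a run of letters, and a missing match says only that these letters are not in the window.

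The third comparison set mdx against C57 myotubes. One channel gene passed the test, Kcnn4, in both treatments, and it was higher in mdx. With aldosterone Kcnn4 had 24, 23.9 and 20.8 CPM in mdx myotubes, against 11.8, 11.5 and 12 CPM in C57 myotubes. With vehicle it had 26, 31.4 and 19.1 CPM in mdx myotubes, against 9.99, 13.4 and 12.9 CPM in C57 myotubes. All 6 mdx libraries were above all 6 C57 libraries, with a log2 difference of 0.94 (SE 0.17, adjusted p = 0.0401) in aldosterone-treated myotubes and 1.07 (SE 0.17, adjusted p = 0.0192) in vehicle myotubes. Of all genes, 0.311% passed in the aldosterone comparison (0.121% higher) and 0.362% in the vehicle comparison (0.140% higher). The calls were near the threshold: leaving out each library in turn gave adjusted p of 0.0599 to 0.172 with aldosterone, passing in none of 6 fits, and 0.00451 to 0.0889 with vehicle, passing only without mdx replicate 3.

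Kcnn4 is a fibroblast-high gene, and the summed fibroblast markers were higher in every mdx myotube library than in every C57 one. The 7 fibroblast markers summed to 1066 to 3900.0 CPM in mdx aldosterone-treated myotubes, against 379 to 746 CPM in C57 aldosterone-treated myotubes, and to 1230.0 to 3545 CPM in mdx vehicle myotubes, against 258 to 822 CPM in C57 vehicle myotubes. None of the 7 passed the test, with a median log2 difference of 1.84 with aldosterone and 1.66 with vehicle and 6 of 7 above 0 in both. The sums mainly reflect the collagen genes Col1a1 and Col1a2. In mdx vehicle myotube replicate 2 these had 27918 and 16451 reads, against 1810 or fewer for each other marker. Culture mdx 2 had the highest sums, at 3900.0 CPM after aldosterone and 3545 CPM after vehicle, and there Kcnn4 was not highest of its group with aldosterone and was highest with vehicle, at 31.4 CPM. Other fibroblast-high channels peaked in different cultures. In mdx cultures 1, 2 and 3 with aldosterone, Kcne4 had 0.653, 3.28 and 0.857 CPM and Kcnd1 had 1.57, 3.08 and 1.47 CPM, both highest in culture 2. Kcnk2 had 13.9, 11.3 and 11.1 CPM in those cultures, highest in culture 1, and Scn3a had 10.4, 17.5 and 24.4 CPM, highest in culture 3. Cultures mdx 1 and mdx 3 had marker sums of 1066 to 1830.0 CPM and held Kcnn4 at 19.1 to 26.0 CPM. Both the sums and the Kcnn4 levels were above those of every C57 myotube library. The part of fibroblast RNA in the Kcnn4 difference was not tested.

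Kcnn3, high in myotubes, had 87.8, 76.2 and 105 CPM in mdx vehicle myotubes, against 143, 122 and 132 CPM in C57 vehicle myotubes. The groups did not overlap, and the difference did not pass the test, at -0.63 (SE 0.17, adjusted p = 0.16) with aldosterone and -0.57 (SE 0.17, adjusted p = 0.204) with vehicle. The 8 myotube markers are given beside it: they summed to 23780.0 to 36260.0 CPM in mdx and 34640.0 to 38110.0 CPM in C57 aldosterone-treated myotubes, and to 25480.0 to 36740.0 CPM in mdx and 35260.0 to 40610.0 CPM in C57 vehicle myotubes. None of the 8 passed the test, and none had a log2 difference above 0 in either treatment, with medians of -0.40 with aldosterone and -0.35 with vehicle. Their part in the Kcnn3 difference was not tested. Scn4a differed by -0.40 (SE 0.27, adjusted p = 0.527) and Kcnj2 by -0.23 (SE 0.23, adjusted p = 0.68) in vehicle myotubes, neither past the threshold. Kcnj11 differed by -0.28 (SE 0.20, adjusted p = 0.532), Kcnma1 by -0.28 (SE 0.20, adjusted p = 0.541) and Kcnc4 by -0.29 (SE 0.68, adjusted p = 0.884). None of the 32 partner genes tested passed in either treatment.

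**Figure D4:**
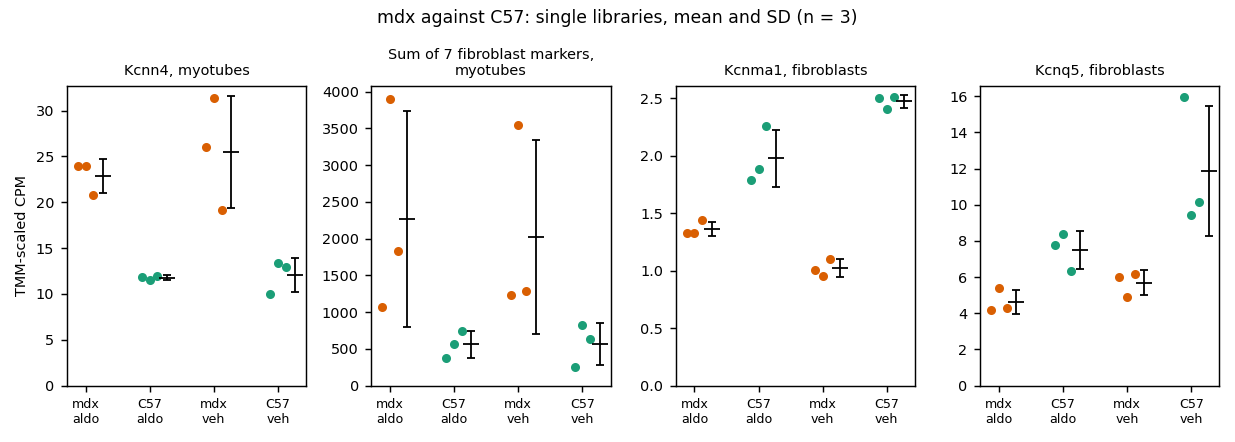
TMM-scaled CPM per library, with mean and SD of 3, mdx left of C57: Kcnn4 in myotubes, the sum of the 7 fibroblast markers in the same myotubes, and Kcnma1 and Kcnq5 in fibroblasts. The 6 mdx myotube libraries lie above the 6 C57 libraries for Kcnn4, and the mdx fibroblasts in vehicle medium lie below the C57 ones for Kcnma1 and Kcnq5.

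The fourth comparison asked whether medium from aldosterone-treated myotubes changed the channel RNAs of fibroblasts, relative to medium from vehicle-treated myotubes. No channel gene of 38 passed edgeR's test in mdx (0 of 16671 genes), in C57 (0 of 16671 genes) or in the mean of both lines (0.0120% of genes). At an unadjusted p under 0.05 there were 2 of 38 channel genes in mdx, 7 in C57 and 8 in the mean. Over all 16671 genes there were 818, 1996 and 2540. DESeq2 called none in mdx (0 of all genes) and none in C57 (0.598%), and Kcnab1 in the mean (adjusted p = 0.0405, beside 2.57%). The smallest p in the mean belonged to Kcnk12, a tandem-pore channel related to Kcnk13, at -1.13 (SE 0.28, adjusted p = 0.173), Kcnq5, at -0.48 (SE 0.14, adjusted p = 0.193), and Kcnab1, at -0.44 (SE 0.13, adjusted p = 0.211). In mdx Kcnk12 and Kcnh7 were among the 3 smallest, at -0.97 and -0.74 (adjusted p = 0.915 each). In C57 the 3 smallest belonged to Kcnq5, at -0.67 (SE 0.19, adjusted p = 0.327), Kcnk12, at -1.29 (SE 0.39, adjusted p = 0.327), and Scn2a, at 0.34 (SE 0.13, adjusted p = 0.378).

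One library decided much of this. Kcnh2 had 6.4, 18.5 and 6.62 CPM in mdx fibroblasts in aldosterone-myotube medium, against 13.7, 15.3 and 14.2 CPM in vehicle-myotube medium. In C57 it had 8.09, 9.15 and 6.18 CPM in aldosterone-myotube medium, against 14.8, 13.8 and 12.4 CPM in vehicle-myotube medium. Replicate 2 of the mdx aldosterone-medium group stood above all other libraries, and the other 5 aldosterone-medium libraries were below all 6 vehicle-medium libraries. Without that replicate the mean comparison called 5.59% of all genes and 5 channel genes. This fit, 1 of those that left out each library in turn, was singled out after the values were seen. Its adjusted p are therefore descriptive. The log2 change in aldosterone-myotube medium was then -0.99 for Kcnh2 (adjusted p = 0.000297), -1.30 for Kcnk12 (adjusted p = 0.0248), -0.47 for Kcnn4 (adjusted p = 0.0328), -0.54 for Kcnq5 (adjusted p = 0.0458) and 0.46 for Kcnk2 (adjusted p = 0.0458). The same replicate had the highest myotube marker sum of the fibroblast libraries, at 156 CPM, against 27.3 and 30.3 CPM in the others of its group.

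The medium change in mdx minus that in C57 gave no channel gene by edgeR (0 of 16671 genes) and none by DESeq2. There were 3 channel genes at an unadjusted p under 0.05, beside 391 of 16671 genes. The smallest p belonged to Kcnma1, at 0.73 (SE 0.27, adjusted p = 1.0).

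The last comparison set mdx against C57 fibroblasts. In aldosterone-myotube medium no channel gene of 38 passed edgeR's test, beside 1.23% of all genes. There were 8 channel genes at an unadjusted p under 0.05, beside 2308 of 16671 genes. DESeq2 called 4 (Kcnq5, Kcne4, Scn3a and Scn7a), beside 3.57% of all genes. Kcnma1 had 1.33, 1.33 and 1.44 CPM in mdx fibroblasts, against 1.79, 1.89 and 2.26 CPM in C57 fibroblasts, a log2 difference of -0.55 (SE 0.19, adjusted p = 0.202). Kcnq5, a slowly activating Kv channel of brain and muscle, had 4.2, 5.4 and 4.31 CPM in mdx fibroblasts, against 7.79, 8.37 and 6.36 CPM in C57 fibroblasts, a log2 difference of -0.69 (SE 0.20, adjusted p = 0.115). Both genes were lower in every mdx library than in every C57 library of that medium, without passing the test. The next smallest p belonged to Kcne4, at -1.01 (SE 0.29, adjusted p = 0.138), and Scn7a, at -1.63 (SE 0.54, adjusted p = 0.188).

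In vehicle-myotube medium 2 of 38 channel genes were lower in mdx and none higher, beside 1.10% of all genes called (0.588% lower), and the median log2 difference was -0.33 over the channel genes and 0.005 over all genes. Kcnma1 had 1.01, 0.952 and 1.1 CPM in mdx fibroblasts, against 2.5, 2.41 and 2.51 CPM in C57 fibroblasts, with a log2 difference of -1.28 (SE 0.19, adjusted p = 0.00318). The groups did not overlap, and the call held in 6 of 6 fits that left out a library. Kcnq5 had 5.98, 4.89 and 6.16 CPM in mdx fibroblasts, against 16, 9.43 and 10.2 CPM in C57 fibroblasts, with a log2 difference of -1.07 (SE 0.19, adjusted p = 0.0116). Its call was lost without mdx vehicle-medium replicate 2, at an adjusted p of 0.0891. The gaps in the 2 media are not shown to differ, since no channel gene passed the test of mdx minus C57 medium changes given before.

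Markers of contractile mural cells, which also express Kcnma1 and Kcnq5, are given beside these results. The 6 smooth muscle and pericyte markers summed to 930.4 to 960.3 CPM in mdx fibroblasts and 982 to 1017 CPM in C57 fibroblasts in vehicle medium, where none passed edgeR's test. In aldosterone medium they summed to 844 to 942 CPM in mdx fibroblasts and 922 to 966 CPM in C57 fibroblasts. Of the 6, 5 had log2 differences below 0 in each medium. Myh11, the smooth muscle myosin heavy chain, was lower in mdx fibroblasts in aldosterone medium, with a log2 difference of -1.0 (SE 0.15, adjusted p = 0.00344), and was at -0.55 (SE 0.15, adjusted p = 0.105) in vehicle medium, where the adjusted p by DESeq2 was 0.0293. Cnn1, the smooth muscle calponin, was at -0.97 (SE 0.21, adjusted p = 0.0709) in aldosterone medium, where the adjusted p by DESeq2 was 1.05e-05. The myotube markers, since Kcnma1 is myotube-high, summed to 16.4 to 50.9 CPM in mdx fibroblasts and 28.5 to 120.0 CPM in C57 fibroblasts in vehicle medium. The part of either cell type in the difference was not tested. Of the 26 partner genes tested in fibroblasts, none passed in the medium comparisons, and Cav3 alone passed between the lines, higher in mdx by 0.89 (SE 0.17, adjusted p = 0.0202) in aldosterone medium and 0.90 (SE 0.17, adjusted p = 0.017) in vehicle medium. The call of Cav3 was kept in 2 of 6 fits that left out a library in each medium. In aldosterone medium it was lost without mdx replicate 3 or any 1 C57 library (adjusted p up to 0.0936), and in vehicle medium without mdx replicate 2 or 3 or C57 replicate 1 or 2 (adjusted p up to 0.127).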

How the data were processed

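RNA was measured in 24 libraries (8 groups of 3), which the labels call biological replicates, so p-values measure the spread between these samples. Poly(A) libraries without strand information were made, per the labels. Reads from exon sequence shared by genes on opposite strands therefore cannot be told apart. The authors deposited a read count per gene, made with featureCounts 1.5.0-p3 on mm39 per the submitters' processing notes; no aligner is named in these notes, and its identity is therefore not given here. The authors also deposited FPKM values, scaled by gene length and library size, which were used only for levels across genes. All 56748 genes of the table entered the steps below, and only the channel genes are reported. Counts were filtered (filterByExpr), normalised by TMM and tested with edgeR 4.0.16 (R 4.3.3) by a quasi-likelihood F-test on group means, with Benjamini-Hochberg adjustment. The 12 myotube libraries, the 12 fibroblast libraries and, for cell types, all 24 were fitted apart, and 15 comparisons were made. The SE of a log2 value is its size over the square root of F. After filtering, 46 of the 49 channel genes were tested in myotubes, 38 in fibroblasts and 49 between cell types, with 4, 7 and 11 of the 57 genes under the level limit also kept. The mm39 positions come from the deposited count table. DESeq2 1.42.0 and other settings were alternatives. The code was tested on simulated data.

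Whether replicate numbers pair the libraries was checked over genes: each library was centred on the mean of its group, and libraries with the same number were correlated, with a limit of 0.1. It was 0.359 to 0.704 in 6 of 6 aldosterone and vehicle myotube pairs, so the replicate block is given there; the pairing comes from the data, and the labels give only a number. In fibroblasts the correlation passed the limit in 4 of 6 pairs, 3 of them mdx. In the comparisons of lines and of cell types the samples share only a number.

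The channel genes, the marker and partner lists and the tests were chosen with earlier results of these data known. Genes are named where called (up to 15 per comparison by adjusted p), where highest in FPKM in their family, where among the 3 smallest p of a comparison without calls, or where in a short list (Scn4a, Kcnj2, Kcnj11, Kcnn3, Kcnma1, Kcna5 and Kcnc4 among them); up to 5 called partner genes are named per comparison. Some genes that met these rules are not reported here by name or drawn, although counts and sums include them. Others, such as Sgk1, Scn7a and Kcnk6, were chosen after their values were seen. Counts per library set the precision, and limits for genes without reads use 3 counts and cover counting error only.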

Additional observations from a re-analysis of the deposited data

How the results depend on the processing

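The counts of channel genes between cell types stayed within 1.5 times of 41 (mdx) and 40 (C57) under all alternatives run, and the rule on level moved membership by less than that. Small counts moved. Without the filter on low counts, 1 channel gene passed for aldosterone in the mean of both lines, 1 and 2 for medium in C57 fibroblasts and in the mean, and 1 and 4 for mdx against C57 fibroblasts in aldosterone and in vehicle medium. DESeq2 called 1 for aldosterone in C57 and in the mean, 3 for mdx against C57 aldosterone-treated myotubes, 1 for medium in the mean, 4 for the lines in aldosterone medium and 1 for the cell type difference between lines. With only the groups compared in the fit, the counts were 1 for aldosterone in C57, 0 for the lines in vehicle myotubes, and 1 each for the lines in aldosterone and in vehicle medium. The replicate block gave 2, 3 and 7 for aldosterone in mdx, in C57 and in the mean, and 3 for the lines in each myotube treatment, where Kcnn3 and Kcnf1 joined Kcnn4 although the numbers do not pair those samples. With the block and without culture 1, 2 or 3, the counts were 2, 1 and 1 in mdx and 3, 3 and 2 in C57. The mean then gave 6, 3 and 4 without mdx cultures 1, 2 and 3, and 5, 6 and 5 without C57 cultures 1, 2 and 3. Without mdx culture 2 the blocked medium counts, a setting chosen after the data were seen, were 3 in mdx and 7 in the mean, against 0 with all cultures; the block moved no other count of channel genes by over 1.5 times. Leaving out 1 library at a time gave 0 to 1 for aldosterone in the mean, 0 for the lines in aldosterone-treated myotubes and 0 to 1 in vehicle myotubes. The same gave 0 to 1 for medium in mdx, 0 to 5 in the mean, 1 to 2 for the lines in vehicle medium and 0 to 1 for the cell type difference between lines. The aldosterone change of Kcnc4 in the mean, without the block, ran between 0.00 and 0.48 over such fits. The causes were not tested. Low levels limit precision, with 16 to 162 reads of Scn10a per myotube library.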

Other observations

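Summed by family, the length-scaled levels of the channel genes showed how unevenly the families filled each cell type. In vehicle-treated mdx myotubes, Kv alpha subunits summed to 97.6 ± 13.0 FPKM, against 7.37 ± 0.222 FPKM in mdx fibroblasts (SD, n = 3). In C57 the same sum was 116 ± 9.71 FPKM in myotubes, against 8.41 ± 1.23 FPKM in fibroblasts. Inward rectifiers summed to 18.5 ± 4.77 FPKM in mdx myotubes, against 2.10 ± 0.258 FPKM in mdx fibroblasts. Tandem-pore channels, led by Kcnk2 in fibroblasts, stood the other way, at 5.82 ± 0.268 FPKM in mdx myotubes, against 9.44 ± 0.649 FPKM in mdx fibroblasts. Kv auxiliary subunits summed to 2.40 ± 0.639 FPKM in mdx myotubes, against 6.52 ± 1.02 FPKM in mdx fibroblasts, so the auxiliary genes were nearly as abundant as the Kv pores in fibroblasts and far below them in myotubes. These sums were not tested.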
